A study of Rattus norvegicus with 12 samples.

Results

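Zbtb16 encodes PLZF, a transcription factor with a BTB domain and zinc fingers that mostly represses its targets, and its gene is strongly induced by glucocorticoid hormones in many tissues. It is described here with 8 other genes of the glucocorticoid response: the induced genes Fkbp5, Sgk1, Tsc22d3, Klf9 and Cdkn1a, the receptors Nr3c1 and Nr3c2, and the enzyme Hsd11b1. Every non-control array probe named for 1 of these 9 genes was taken, which gave 18 of the 41012 probes on the array. The 9 genes are among 18336 gene names that these probes carry. All 18 were among the 29797 probes kept after the filter on dim probes, and all 18 were well above background on all 12 arrays. Zbtb16 was selected on its processed signal in these same animals, which was highest at 12 months. Its differences that involve 12 months are therefore given as a description, with no test.

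RNA came from micropunches of the rostral ventrolateral medulla (RVLM), the brainstem region whose neurons drive sympathetic output to heart and vessels. The animals were male F344 rats, an inbred strain, in groups of 3: young at 3 months, middle-aged at 12 months and aged at 24 months. No group was treated; all were fed freely, kept on a regular light cycle, and decapitated under isoflurane. Replicate 3 of each age was hybridised to a pair of arrays, which were averaged, so that each value below stands for 1 animal. The hour of death is not given in the sources used here.

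Glucocorticoids leave the adrenal gland and act inside cells through 2 nuclear receptors, the glucocorticoid receptor (Nr3c1) and the mineralocorticoid receptor (Nr3c2). Hsd11b1 regenerates the active hormone from its inert form within the tissue. The bound receptors raise transcription of genes such as Fkbp5, a co-chaperone that lowers the receptor's affinity for hormone, Sgk1, a kinase that regulates ion channels and transporters, and Tsc22d3 (GILZ), an anti-inflammatory leucine zipper protein. In the brainstem, glucocorticoid signalling is known for its influence on blood pressure control.

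Zbtb16 was read by a pair of 60-base probes on the minus strand of chromosome 8 in the rat build rn3, whose starts lie 156.8 kb apart. They are printed because the pattern below rests on these stretches of the gene. Fkbp5, the other gene with raised values at 12 months, is shown by 1 of its 3 probes, A_43_P18969. That is its dimmest probe, and all ages overlapped on it. The separations of ages described below for Fkbp5 were on A_44_P532249 and A_44_P519167, whose sequences are not printed. The first Zbtb16 probe lies at chr8:51953559-51953618, the second at chr8:52110317-52110376, and the Fkbp5 probe at chr20:6647588-6647647 on the minus strand. An rn3 annotation was not used here, so exon numbers are not given.
Zbtb16 A_44_P366142: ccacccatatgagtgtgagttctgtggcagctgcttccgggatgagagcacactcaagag
Zbtb16 A_44_P189428: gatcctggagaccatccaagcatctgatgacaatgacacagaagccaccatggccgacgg
Fkbp5 A_43_P18969: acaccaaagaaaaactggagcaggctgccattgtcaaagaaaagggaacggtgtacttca

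Levels below are log2 processed signals minus the 75th percentile of the non-control probes on that array, so that 0 is the signal of a probe at that percentile. Differences are log2 differences ± the standard error (SE) of a limma fit over all 9 animals, with 3 animals per age. The words rose and fell are kept for probes with a limma adjusted p under 0.05, two-sided, with Benjamini-Hochberg adjustment across all 29797 probes. The number of animals limits the precision. In a bulk punch, fewer cells of a type and less RNA per cell cannot be told apart. Aged replicate 3, middle-aged replicate 3 and young replicate 2 stood apart from the other 6 animals on the second principal component (21.6% of the variance), at 27.2, 17.7 and 25.8 where the others were at 4.73 or below. Values without these 3 animals are given beside the results that turn on them.

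Markers of the labelled tissue were present. All 6 neuronal markers and 4 of 5 markers of the C1 catecholamine neurons of this region (Th, Dbh, Ddc and Slc18a2) were well above background on every array, and Pnmt was not tested. Markers of oligodendrocytes (8 of 8), astrocytes (7 of 7), microglia (6 of 6), endothelium (5 of 5), and meninges and fibroblasts (4 of 4) were above background on every array as well. The punches thus held RNA of glia and vessels beside that of neurons. At 12 months against both other ages, 0 of the 48 markers tested passed the limma test. At an unadjusted limma p under 0.05 there were 5 (10.4%), all lower, against 5.05% of all probes. In the same difference the medians of the 10 marker lists lay between −0.59, for 2 red blood cell genes, and 0.09.

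Zbtb16 stood highest at 12 months on both of its probes. On A_44_P366142 its level was −3.33, −2.69 and −3.48 in the young animals, −1.30, −1.16 and −1.13 in the middle-aged animals, and −2.60, −2.86 and −3.25 in the aged animals. All 3 middle-aged animals lay above all 6 others, and the young and aged animals overlapped. On the linear scale the processed signal of single arrays was 55.5 to 99.1 at 3 months, 275 to 383 at 12 months and 70.4 to 135.3 at 24 months. The middle-aged mean exceeded the young mean by 1.97 ± 0.22, or 3.91-fold, and the aged mean was lower than the middle-aged mean by 3.26-fold (a log2 difference of −1.70 ± 0.22). Set against the mean of both other ages, the 12-month level was 1.84 ± 0.19 higher. Only 2 of the 29797 probes were further in size from 0 in the last difference. The gene was chosen on these values, so nothing is read from this rank.

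The second Zbtb16 probe, A_44_P189428, showed a smaller difference in the same direction. Its level was −4.73, −4.72 and −4.84 in young animals, −4.27, −3.33 and −3.94 in middle-aged animals, and −4.64, −5.04 and −4.15 in aged animals. All middle-aged animals lay above all young ones, but aged replicate 3, at −4.15, lay above middle-aged replicate 1. The middle-aged minus young difference was 0.91 ± 0.26, and the aged minus middle-aged difference was −0.76 ± 0.26. The probes therefore gave 12-month differences of unequal size for the same gene. Processed signals of this probe were 18.9 to 61.0 over the 12 arrays.

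Aged and young animals were not told apart on either Zbtb16 probe. For A_44_P366142 the aged minus young difference was 0.26 ± 0.22, with a 95% interval of −0.24 to 0.76 (limma adjusted p = 0.609). For A_44_P189428 it was 0.15 ± 0.26, with an interval of −0.45 to 0.75 (limma adjusted p = 0.821). Neither interval shows that the ages were equal. For A_44_P366142 the overlap of the ages came from young replicate 2 alone. At −2.69 it lay above aged replicates 2 and 3, at −2.86 and −3.25. Young replicate 2 and aged replicate 3 are among the 3 animals apart on the second component. Without those 3 the aged minus young difference was 0.67 (limma adjusted p = 0.170). With 1 animal left out it was 0.11 to 0.50.

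**Figure D1:**
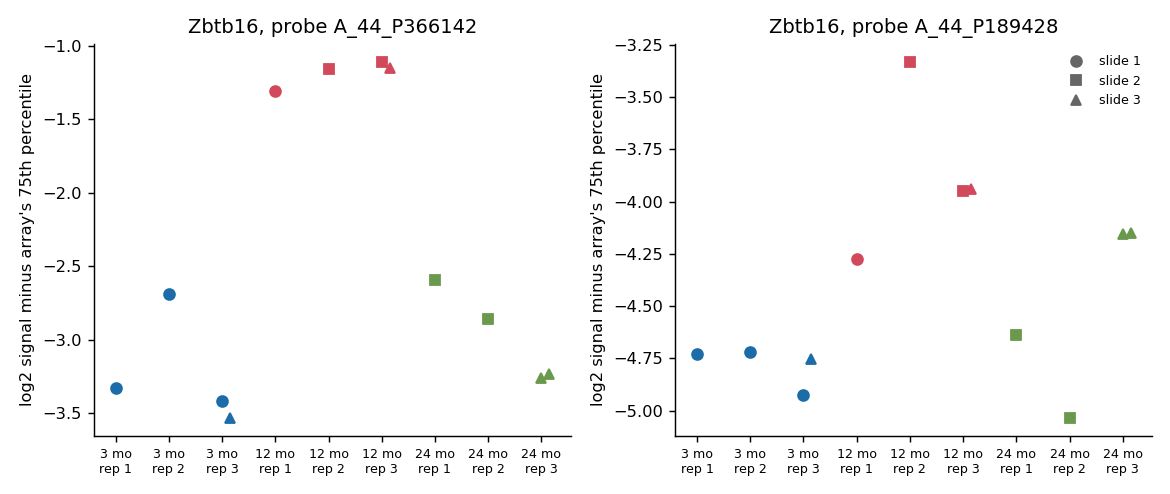
Level of the 2 Zbtb16 probes on each of the 12 arrays (log2 processed signal minus the array's 75th percentile, vertical axis, with a range of its own in each panel), by animal (horizontal axis) and slide (marker shape); colour marks age. On A_44_P366142 (left) all arrays at 12 months lie between −1.30 and −1.11 and all others at −2.60 or below; on A_44_P189428 (right) aged replicate 3, at −4.15, lies within the range of the 12-month arrays.

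The arrays lay on 3 slides, and age was partly tied to slide, so the Zbtb16 difference was also read within a slide. The gene was chosen on these same animals, so the values in this paragraph are a description and no independent check. Slide 3 alone held all ages, with replicate 3 of each. Middle-aged and aged replicate 3 are among the 3 animals apart on the second component. On slide 3 the middle-aged minus young difference of A_44_P366142 was 2.38 and the aged minus middle-aged difference −2.10. With slide as a block over all arrays these differences were 1.97 and −1.69. The pair of arrays of the same animal differed by at most 0.113 for this probe and 0.168 for the other. Without the 3 animals apart on the second component, the 12-month level of A_44_P366142 exceeded the mean of both other ages by 1.83. Normexp background correction with an offset of 50 was also used in place of the processed signal. The 12-month excess over both other ages was then smaller, at 1.29 for A_44_P366142 and 0.29 for A_44_P189428. The parts of the correction and of the offset were not tested apart.

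Of the 16 probes of the 8 other genes, 0 passed the limma test in any of the 4 differences. At an unadjusted limma p under 0.05 there were 5 probes for middle-aged minus young (2 higher, 3 lower), 2 for aged minus middle-aged (both higher) and 1 for aged minus young (higher). For the 12-month level minus the mean of both other ages there were 5 (2 higher, 3 lower). Over all probes these unadjusted shares were 6.28%, 10.5%, 15.1% and 5.05%. The lowest adjusted p was 0.185, 0.333, 0.0816 and 0.934 in these 4 differences in turn. Over all probes, 0.175% passed for middle-aged minus young (0.134% higher and 0.0403% lower), 0.00336% for aged minus middle-aged, 1.85% for aged minus young (1.39% higher and 0.463% lower), and 0% for the 12-month level against both other ages. With shares this low, a count of 0 among 16 probes is near the background and is not a result about these genes. A_44_P366142 of Zbtb16 was among the 52 probes that passed for middle-aged minus young. That count includes the contrast for which the gene was chosen, and nothing is read from it.

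The median difference of the 16 probes was −0.06 for middle-aged minus young, 0.11 for aged minus middle-aged, 0.08 for aged minus young and −0.08 for 12 months against both other ages. Over all probes these medians were 0.01, 0.02, 0.02 and 0.00. Against both other ages, 12 of the 16 probes were lower at 12 months and 4 were higher, and 3 of the 4 were those of Fkbp5.

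**Figure D2:**
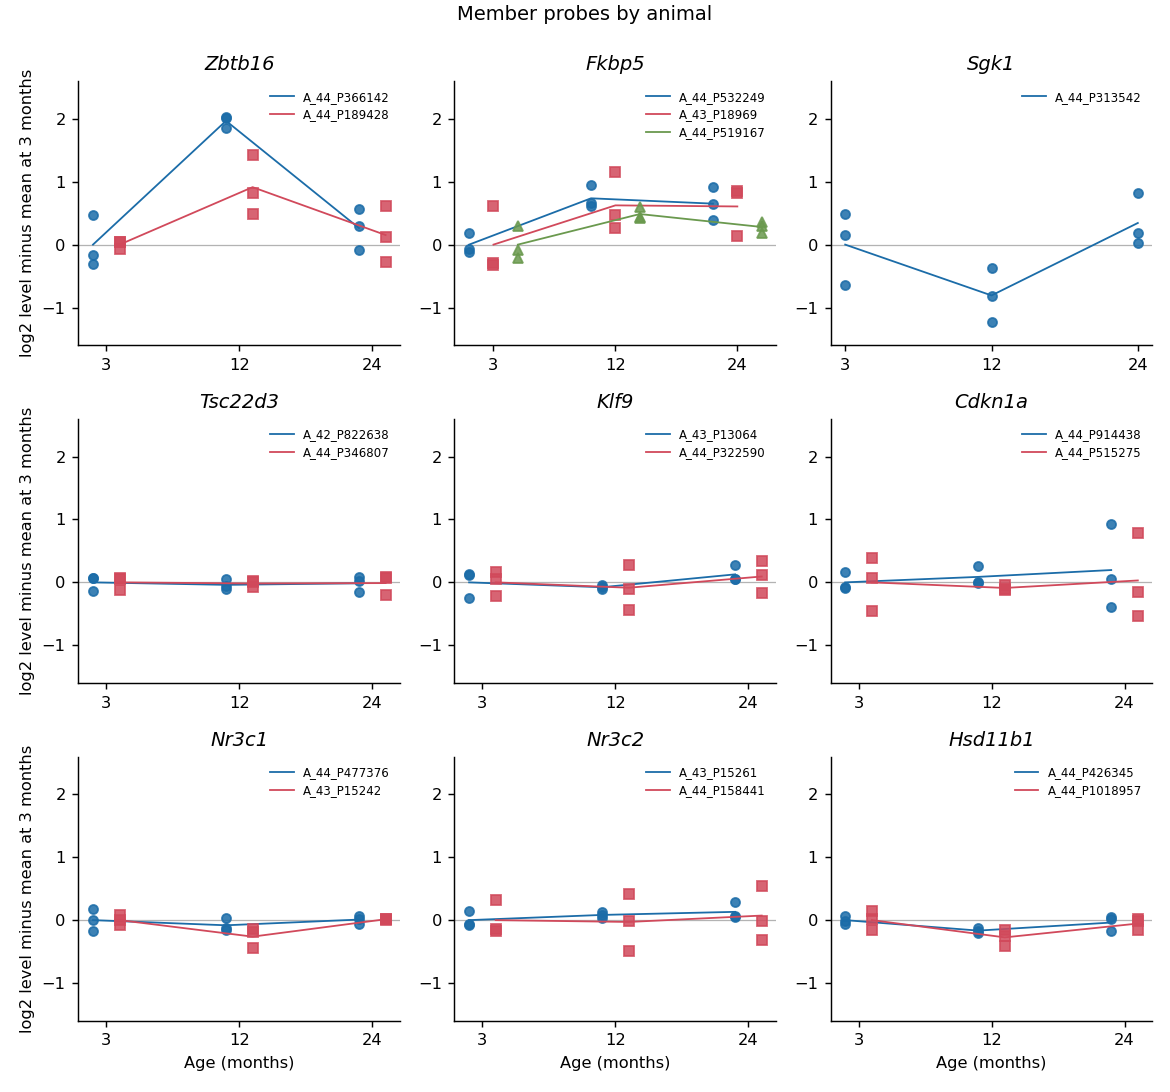
Level of each of the 18 probes in each animal, as the log2 difference from that probe's mean at 3 months (vertical axis, the same range in all panels), by age in months (horizontal axis); points are animals, lines join the age means, and colours are probes. The Zbtb16 lines are highest at 12 months, the Fkbp5 lines stand above 0 at both 12 and 24 months, the Sgk1 line is lowest at 12 months, and the Tsc22d3 animals stay close to 0 at every age.

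Fkbp5, whose transcript is among the most used readouts of glucocorticoid receptor activity, had higher values at 12 and at 24 months than at 3 months on all 3 of its probes, but 0 of them passed. On A_44_P532249 its level was 1.13, 1.39 and 1.08 in young animals, 1.81, 2.15 and 1.86 in middle-aged animals, and 1.59, 1.85 and 2.12 in aged animals. All animals of both older groups lay above all young ones, and middle-aged and aged animals overlapped. The middle-aged minus young difference was 0.74 ± 0.15, or 1.67-fold, with a 95% interval of 0.39 to 1.08 (limma adjusted p = 0.185). The aged minus young difference was 0.65 ± 0.15, with an interval of 0.30 to 1.00 (limma adjusted p = 0.0816). The aged minus middle-aged difference was −0.08 ± 0.15 (−0.43 to 0.26, limma adjusted p = 0.854). The aged minus middle-aged difference of Zbtb16 was −1.70 (−2.20 to −1.20) on A_44_P366142 and −0.76 (−1.36 to −0.16) on A_44_P189428. The interval of the second Zbtb16 probe overlaps that of this Fkbp5 probe. Zbtb16 was chosen on those values, and the difference between the genes was not tested. Without the 3 animals apart on the second component, the middle-aged minus young difference was 0.87 and the aged minus young difference 0.61.

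The other Fkbp5 probes gave differences in the same direction relative to 3 months. A_44_P519167 read −0.86, −0.48 and −1.0 in young animals, −0.19, −0.37 and −0.34 in middle-aged animals, and −0.60, −0.49 and −0.42 in aged animals. On this probe the 3 middle-aged animals lay above all 6 others, with a smallest gap of −0.37 at 12 months against −0.42 at 24 months. Its middle-aged minus young difference was 0.49 ± 0.13 (limma adjusted p = 0.358), and its aged minus middle-aged difference was −0.21 ± 0.13 (limma adjusted p = 0.584). A_43_P18969, whose sequence is printed above, ranged from −2.83 to −1.88 at 3 months, −2.25 to −1.35 at 12 months and −2.37 to −1.64 at 24 months, and all ages overlapped. Its middle-aged minus young difference was 0.62 ± 0.33 and its aged minus young difference 0.61 ± 0.33.

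Zbtb16 is left out of the next counts wherever 12 months is compared, because it was chosen on those values. A 12-month level above all 6 other animals was found on 1 of the 16 other probes, the Fkbp5 probe A_44_P519167, and over all probes this pattern was present in 0.782%. A 12-month level below all 6 others was found on 1 of the 16, of Nr3c1, against 1.19% of all probes. Middle-aged animals lay above all young animals on 2 of the 16, both of Fkbp5, against 6.32% of all probes. They lay below all young animals on 2 probes, of Hsd11b1 and Nr3c1, against 4.9% of all probes. Aged animals lay above all middle-aged animals on 4 probes, of Sgk1, Klf9, Nr3c1 and Hsd11b1, against 9.77% of all probes, and below them on 1, of Fkbp5, against 7.05%. Over all 18 probes, aged animals lay above all young animals on 1 probe, of Fkbp5, and below on 0, against 13.2% and 9.73% of all probes.

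Marker lists of several cell types also differed between 3 months and the older ages. The summed linear level of the 8 oligodendrocyte markers was 643 to 682 at 3 months, 525 to 556 at 12 months and 452 to 516 at 24 months. That of the 6 microglial markers was 7.09 to 8.12, 10.5 to 10.9 and 13.6 to 16.5 at the same ages. That of the 4 markers of meninges and fibroblasts was 4.34 to 8.96, 3.18 to 3.86 and 2.86 to 3.82. That of the 4 C1 neuron markers was 13.5 to 15.2, 12.5 to 13.1 and 9.09 to 13.3. For middle-aged minus young 0 of the 48 markers passed. At an unadjusted limma p under 0.05 there were 18 (37.5%), against 6.28% of all probes. For aged minus young, 3 microglial markers rose and 1 oligodendrocyte marker fell, where 1.39% of all probes rose and 0.463% fell. None of the 48 had a level of 0. Their part in the Fkbp5 values was not tested.

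Sgk1 was lowest at 12 months, the reverse of Zbtb16. Its single probe, A_44_P313542, read 2.11, 3.24 and 2.90 in young animals, 2.37, 1.93 and 1.53 in middle-aged animals, and 2.78, 2.94 and 3.57 in aged animals. All aged animals lay above all middle-aged ones, and young replicate 1, at 2.11, lay within the middle-aged range. The aged minus middle-aged difference was 1.15 ± 0.33, or 2.22-fold, with an interval of 0.40 to 1.90 (limma adjusted p = 0.333). The middle-aged minus young difference was −0.81 ± 0.33, with an interval of −1.56 to −0.06 (limma adjusted p = 0.739). Against the mean of both other ages the 12-month level differed by −0.98 ± 0.29 (limma adjusted p = 0.934), which placed Sgk1 38th in size among the 29797 probes. None of these passed. On slide 3 alone, with replicate 3 of each age, this difference was −1.72. Middle-aged replicate 3 had the lowest level of all animals and aged replicate 3 the highest. Both are among the 3 animals apart on the second component. Without these 3 animals the difference was −0.53, so that its size rests in part on them. The summed linear level of 2 red blood cell genes was 5.30 to 8.53 at 3 months, 5.66 to 5.79 at 12 months and 8.39 to 14.7 at 24 months. Its part in the Sgk1 values was not tested.

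Tsc22d3 varied little with age. On A_42_P822638 its level was 3.23, 3.44 and 3.44 in young animals, 3.30, 3.26 and 3.43 in middle-aged animals, and 3.21, 3.40 and 3.45 in aged animals, and all ages overlapped. The middle-aged minus young difference was −0.04, with an interval of −0.26 to 0.18, and the aged minus middle-aged difference was 0.02, with an interval of −0.19 to 0.24. On the second probe, A_44_P346807, these differences were −0.02 (−0.24 to 0.20) and 0.01 (−0.21 to 0.23). The same differences of Zbtb16 were 1.97 and −1.70 on A_44_P366142, and 0.91 and −0.76 on A_44_P189428. Zbtb16 was chosen on those values, and the difference between the genes was not tested.

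Klf9, a Krüppel-like factor that glucocorticoids induce in neurons, was likewise close between ages. A_43_P13064 read 1.89, 2.29 and 2.26 in young animals, 2.10, 2.07 and 2.04 in middle-aged animals, and 2.21, 2.20 and 2.42 in aged animals. The aged animals lay above all middle-aged ones, and the young animals spanned the range of middle-aged ones. The aged minus middle-aged difference was 0.20 ± 0.12 (limma adjusted p = 0.546). On A_44_P322590 all ages overlapped, and the same difference was 0.18 ± 0.20.

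Cdkn1a, which encodes the cell cycle inhibitor p21, had 1 animal that stood apart. On A_44_P914438, the mean of 10 spots, aged replicate 3 read 2.21, the other aged animals 1.33 and 0.88, the middle-aged animals 1.27 to 1.54, and the young animals 1.19 to 1.44. On A_44_P515275 the same animal read −4.17, the other aged animals −5.12 and −5.50, the middle-aged animals −5.07 to −5.01, and the young animals −5.42 to −4.57. Aged replicate 3 was thus the highest of the 9 animals on both Cdkn1a probes. The aged minus young difference was 0.20 ± 0.28 on A_44_P914438, with an interval of −0.45 to 0.84. On A_44_P515275 it was 0.03 ± 0.32.

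The glucocorticoid receptor gene Nr3c1 had lower values at 12 months on 1 of its 2 probes. A_43_P15242, the mean of 10 spots, read 0.39, 0.30 and 0.46 in young animals, 0.19, −0.07 and 0.24 in middle-aged animals, and 0.40, 0.39 and 0.40 in aged animals. All middle-aged animals lay below all others. The aged minus middle-aged difference was 0.28 ± 0.09 (limma adjusted p = 0.395), and the middle-aged minus young difference was −0.26 ± 0.09 (limma adjusted p = 0.611). On A_44_P477376 the levels were 0.63 to 0.97 at 3 months, 0.65 to 0.83 at 12 months and 0.74 to 0.87 at 24 months. The ages overlapped there, and the 12-month level differed from the mean of both other ages by −0.09 ± 0.09. Its interval, −0.28 to 0.11, includes the difference of −0.27 found on the other probe.

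The mineralocorticoid receptor gene Nr3c2 showed no separation of the ages. On A_43_P15261 its level was 0.68 to 0.90 in young animals, 0.79 to 0.88 in middle-aged animals and 0.81 to 1.04 in aged animals. The middle-aged minus young difference was 0.08 (−0.13 to 0.30) and the aged minus middle-aged difference 0.05 (−0.16 to 0.26). On A_44_P158441 they were −0.03 ± 0.28 and 0.10 ± 0.28.

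Hsd11b1 had its lowest mean at 12 months on both probes, by small amounts that did not pass. A_44_P426345 read 2.20, 2.14 and 2.28 in young animals, 2.01, 2.09 and 2.03 in middle-aged animals, and 2.25, 2.03 and 2.23 in aged animals. All middle-aged animals lay below all young ones, and aged replicate 2, at 2.03, lay within the middle-aged range. A_44_P1018957 read 1.26 to 1.56 at 3 months, 1.01 to 1.26 at 12 months and 1.26 to 1.44 at 24 months. Against the mean of both other ages the 12-month level differed by −0.15 ± 0.07 and −0.25 ± 0.09 on these probes (limma adjusted p = 0.934 for each).

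**Figure D3:**
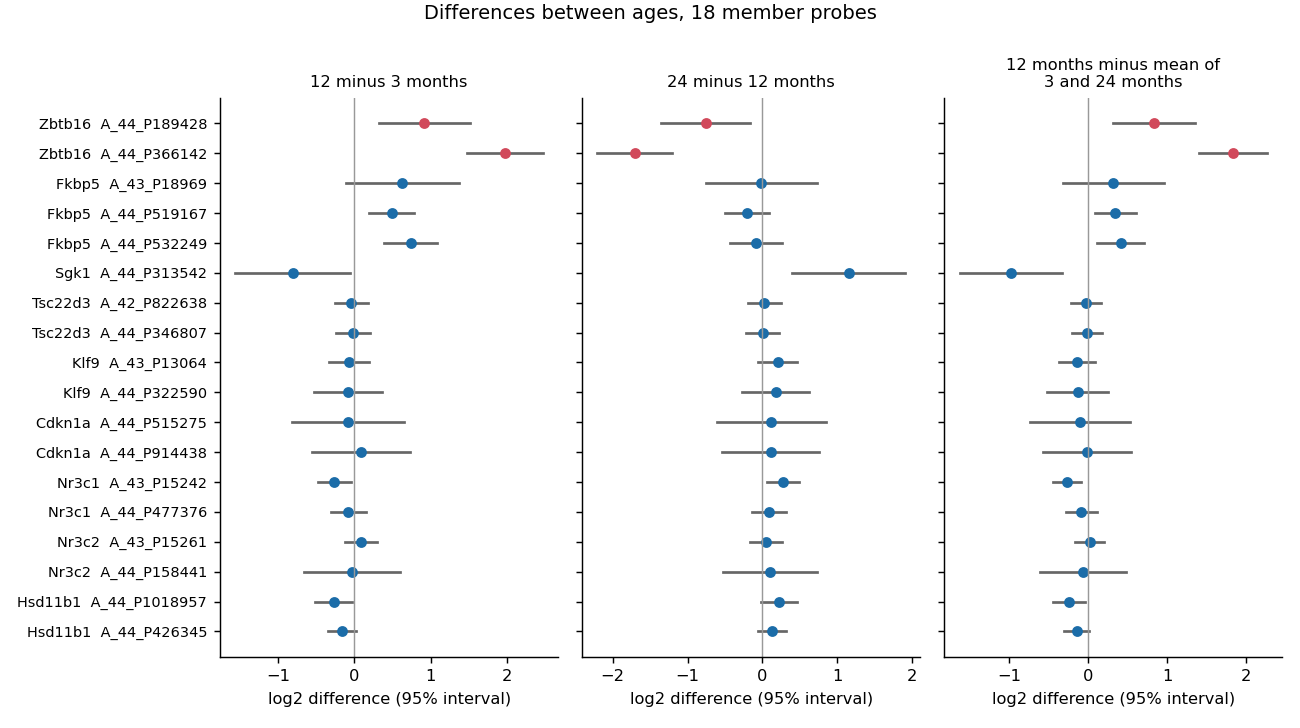
Log2 differences between ages (horizontal axis) for the 18 probes (vertical axis), with 95% limma intervals; Zbtb16 is drawn in red. In the right panel the Zbtb16 points lie at 1.84 and 0.84 and the Sgk1 point at −0.98, and the points of the other genes lie between −0.27 and 0.41.

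The rest of the pathway was read from 10 lists that held 197 other genes, 169 of them tested. For middle-aged minus young, aged minus middle-aged, and 12 months against both other ages, 0 of the 169 passed the limma test, and 19, 22 and 11 were at an unadjusted p under 0.05 (11.2%, 13.0% and 6.51%, against 6.28%, 10.5% and 5.05% of all probes). For aged minus young 7 rose and 0 fell, where 1.39% of all probes rose and 0.463% fell. The lists were chosen with earlier results of these data known, so nothing is read from counts above these shares. The list of 33 tested genes that glucocorticoids induce had a median of −0.15 at 12 months against both other ages, with 24 genes lower and 9 higher (6 and 0 at an unadjusted limma p under 0.05). Its median for aged minus middle-aged was 0.17, with 25 genes higher and 8 lower (9 and 0 at an unadjusted p under 0.05). Over all probes the medians were 0.00 and 0.02. None of the 33 passed in either difference, so these counts and medians describe the direction of the values only. The 7 astrocyte markers had a per-animal median, relative to the young mean, of −0.02 to 0.05 at 3 months, −0.15 to −0.12 at 12 months and −0.08 to 0.09 at 24 months. Their part in the values of the induced genes, a list that shares Gjb6 with them, was not tested.

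The 6 induced genes at an unadjusted p under 0.05 were Nfkbia, Cebpd, Mt1, Arrdc2, Per1 and Rhob, which are named after their values were seen. Nfkbia, the inhibitor that holds NF-kappaB in the cytoplasm, read 0.92, 0.84 and 1.42 in young animals, 0.22, 0.35 and 0.12 in middle-aged animals, and 1.00, 0.36 and 1.61 in aged animals. Its 12-month animals lay below all others, by −0.79 ± 0.25 against the mean of both other ages (limma adjusted p = 0.934). Mt1, a metal-binding metallothionein, read 1.91, 1.49 and 1.33 in young animals, 1.07, 1.36 and 1.65 in middle-aged animals, and 2.31, 2.02 and 2.10 in aged animals. There the aged animals lay above all others. Per1, a clock gene with a glucocorticoid-responsive promoter, differed by −0.33 ± 0.11 at 12 months, and Cebpd, a transcription factor, by −0.62 ± 0.20. Arrdc2 differed by −0.44 ± 0.19 and Rhob, a small GTPase, by −0.23 ± 0.10.

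Among the induced genes Il6r and Fam107a rose in aged against young animals. Il6r, the interleukin-6 receptor subunit, read −1.59, −1.68 and −1.6 in aged animals, against −2.04, −2.19 and −2.25 in young animals, a difference of 0.54 ± 0.08 (limma adjusted p = 0.0101). Fam107a, an actin-associated protein of the stress response, read −2.76, −2.75 and −2.48 in aged animals, against −3.19, −3.08 and −3.44 in young animals, a difference of 0.58 ± 0.11 (limma adjusted p = 0.0421). In both genes the groups did not overlap, and in neither was the 12-month level the highest. The call for Fam107a was lost under 18 of 23 alternatives. That for Il6r held under 21 of 23, and was lost with normexp background correction and without the 3 animals apart on the second component.

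The other genes that rose with age belonged to other branches. Tspo, a mitochondrial protein tied to steroid synthesis and raised in reactive microglia, averaged −0.10 in aged animals and −1.04 in young animals, a difference of 0.94 ± 0.14 (limma adjusted p = 0.0124). The microglial markers Aif1, Cx3cr1 and P2ry12 also rose, by 0.92, 0.68 and 1.19, and their part in the Tspo difference was not tested. The call for Tspo held under 18 of 23 alternatives. It was lost without young replicate 2 or 3, without aged replicate 1 or 2, and without the 3 animals apart on the second component. Scnn1a, the alpha subunit of the epithelial sodium channel that aldosterone induces through Sgk1 in kidney, averaged −3.69 in aged animals and −4.18 in young animals (difference 0.49 ± 0.07, limma adjusted p = 0.0102). With normexp background correction and its offset of 50 the difference was 0.17 (limma adjusted p = 0.585). The call for Scnn1a was also lost without young replicate 3. Of 17 tested genes of Sgk1 and mineralocorticoid action it was the 1 that passed.

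Clock genes, several of which respond to glucocorticoids, gave 3 of 18 that rose in aged against young animals, where 1.39% of all probes rose. This list too was chosen with earlier results of these data known, so nothing is read from that excess. Per2 differed by 0.77 ± 0.09, Bhlhe41 by 0.64 ± 0.09 and Dbp by 0.54 ± 0.07 (limma adjusted p = 0.00429, 0.00885 and 0.00743). The per-animal median of the list, relative to the young mean, was −0.02 to 0.02 at 3 months, −0.05 to 0.04 at 12 months and 0.05 to 0.15 at 24 months. The young and middle-aged animals overlapped, and the aged animals lay above both. The means of Per2, Bhlhe41 and Dbp were highest at 24 months, unlike that of Zbtb16. Whether clock phase played a part in any value here was not tested. Without the 3 animals apart on the second component, 0 of the 7 list genes named as risen in aged animals passed, and 58 probes passed in all, against 552 with them. The differences themselves were of like size without those animals: 0.76 for Per2, 0.54 for Bhlhe41, 0.55 for Dbp, 0.96 for Tspo, 0.51 for Il6r, 0.56 for Fam107a and 0.50 for Scnn1a.

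Relatives by family did not share the Zbtb16 pattern in their medians. The 20 other BTB zinc finger genes tested had a 12-month median of 0.03 against both other ages, with 13 higher and 7 lower. The 10 Krüppel-like factors tested had −0.08, with 3 higher and 7 lower. The 23 chaperones and coregulators of the receptors had 0.07, with 20 higher and 3 lower, and a median of −0.10 for aged minus middle-aged. The medians of steroid synthesis and metabolism, pituitary-adrenal peptides and receptors, mineralocorticoid targets, and p53 targets were −0.01, 0.05, 0.06 and 0.04. The 18 clock genes had −0.06 and the 16 immediate early genes −0.07. Immediate early genes had a median of −0.45 for aged minus young, with 13 lower and 3 higher, and 0 passed (3 at an unadjusted limma p under 0.05, all lower). Their summed linear level was 41.4 in young replicate 1, against 16.1 and 20.5 in the other young animals, and the median was −0.20 without that animal and −0.77 without young replicate 2.

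**Figure D4:**
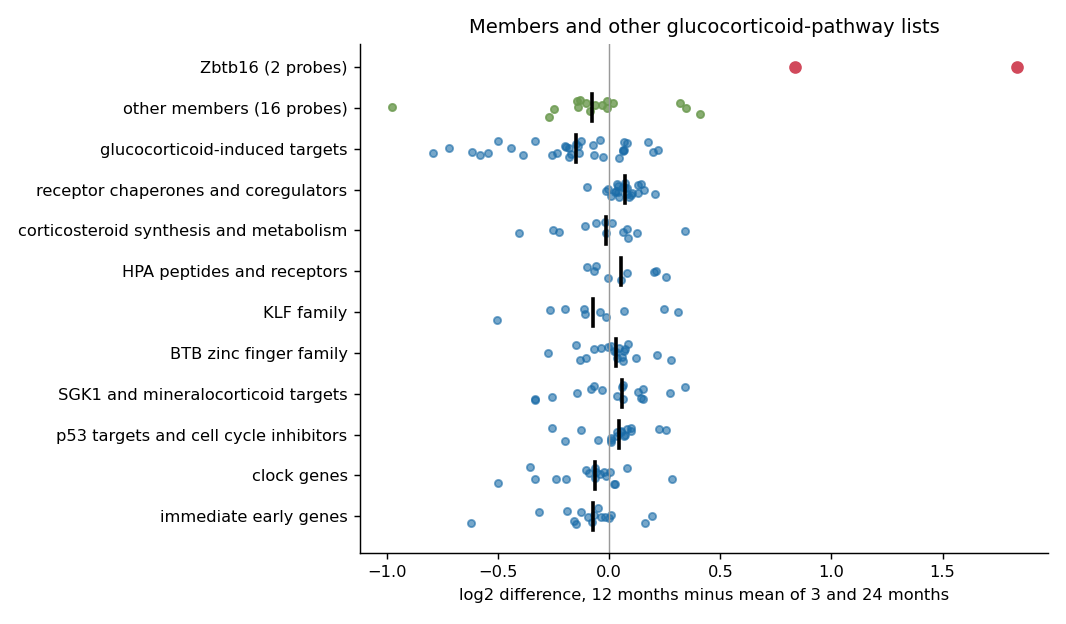
Log2 difference of the 12-month level from the mean of 3 and 24 months (horizontal axis) for each gene of the lists (vertical axis); points are genes, or probes in the top 2 lines, and black bars are medians. The 2 Zbtb16 points, at 0.84 and 1.84, lie to the right of all points of the other lists.

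The named genes most like Zbtb16 over the 9 animals were sought among 1613 genes, each read by its brightest probe. These were no members, had no placeholder name of a predicted gene, and had an SD of at least 0.3. The measure was Pearson's r with A_44_P366142, given as a description, since the points share arrays, slides and age groups and since 18 other probes had r over 0.9 by this measure among 29797. None of those 18 was among the probes searched. Of the genes searched, Bok, a relative of the apoptosis effectors Bax and Bak, had the highest r at 0.86. It read −1.49, −1.33 and −1.40 in young animals, −1.22, −0.71 and −0.81 in middle-aged animals, and −1.5, −1.48 and −1.73 in aged animals. The others were Edn1, the vasoconstrictor peptide endothelin-1 (r = 0.83), Ppl, the linker protein periplakin (0.78), Dysf, the membrane repair protein dysferlin (0.78), and B3gnt8, a glycosyltransferase (0.76). The 12-month levels lay 0.57 (Bok), 0.54 (Edn1), 0.63 (Ppl), 0.55 (Dysf) and 0.82 (B3gnt8) above the mean of both other ages, against 1.84 for Zbtb16. An excess at 12 months follows from choosing genes by likeness to this probe, so nothing is read from it.

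Of the other members, the Fkbp5 probes had r of 0.77, 0.58 and 0.39, and the second Zbtb16 probe 0.74. The lowest were −0.84 for Nr3c1 A_43_P15242, −0.74 for both Hsd11b1 probes and −0.69 for Sgk1. The remaining probes lay between −0.50 and 0.07. At 12 months against both other ages, the 3 Fkbp5 probes had the highest differences after those of Zbtb16, at 0.41, 0.35 and 0.32, and the next was 0.02 for Nr3c2 A_43_P15261.

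**Figure D5:**
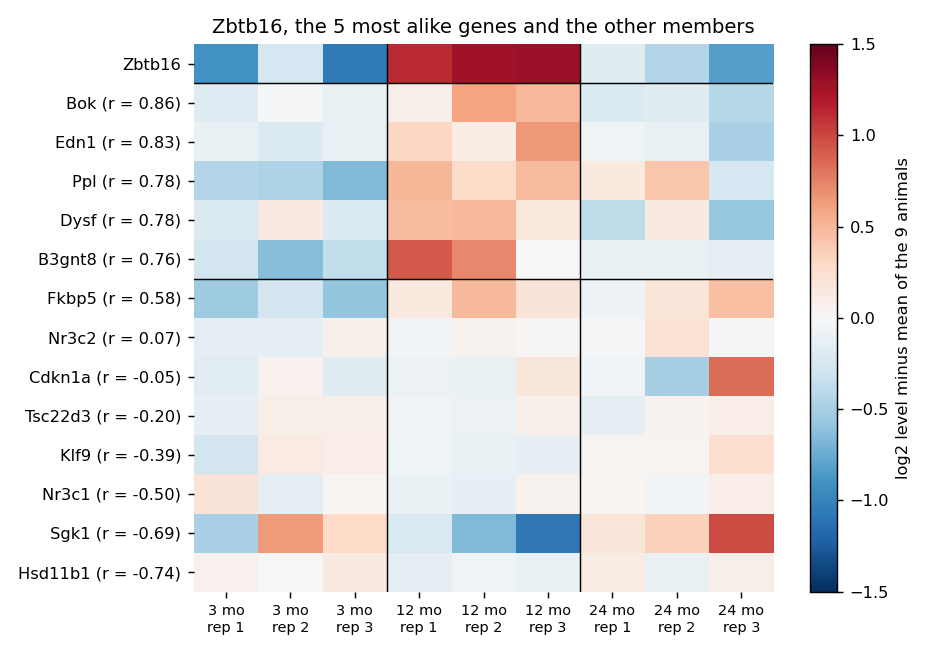
Level in each animal (columns) of Zbtb16, the 5 most alike genes and the brightest probe of each other member (lines of the chart), as the log2 difference from the mean of the 9 animals; red is above and blue below that mean, and r is Pearson's correlation with Zbtb16. The 12-month columns are red for Zbtb16 and most of the alike genes, pale for Tsc22d3 and Nr3c2, and blue for Sgk1.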

How the data were processed

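RNA from 9 male rats was measured on 12 one-colour arrays. The authors' deposited array files hold fluorescence intensity, made with Agilent Feature Extraction 9.5.1.1 per the submitters' processing notes; the processed signal used here was background-subtracted per the file headers, with no scaling between arrays. Spot flags in the deposited files are of another kind (0 or 1). The deposited series matrix holds a score that correlates at 1.00 with log2 processed signal over 36424 features, with column medians of −0.044 to −0.015. The base of its logarithm and the choice of its features are unknown, its direction matches the scanner values, and it served as an alternative only. Columns of other samples numbered 0.

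Non-control spots numbered 43379 per array; 57 to 140 were left out as outliers and 0 were saturated, and 73.5% to 77.1% were well above background. Spots of a probe were averaged on the log2 scale, each array's 75th percentile was subtracted, and paired arrays were averaged. A probe was kept if, for 1 age or more, all arrays of that age had it well above background. Positions are rn3 per the file headers. Current symbols came from RefSeq (GRCr8), by accession for 10735 and 126 probes (systematic and listed accession), by name for 5536 and by synonym for 3703; 3308 kept the file's name and 17604 had none. All 18 member probes were named by accession; Sgk1 is Sgk in the files.

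Means per age came from limma 3.58.1 (R 4.3.3) fitted to all 9 animals (prior degrees of freedom 2.69), with 4 differences and the code tested on simulated data. Replicates are separate animals per the labels. Replicate numbers pair no samples: deviations of same-numbered animals correlated at −0.41 to 0.38. The members and lists were chosen with earlier results of these data known. Every member probe is reported. List genes are named where they passed; 6 more glucocorticoid-induced genes at an unadjusted p under 0.05 were named after their values were seen, and the 5 genes most like Zbtb16 by Pearson's r were taken from genes with an SD of at least 0.3. Of a list gene's probes the brightest was used. Alternatives were normexp correction (offset 50), quantile or median scaling, the series matrix, filters, 1 item per gene, slide and replicate blocks, 12 arrays with animal as a random block, 1 array of each pair, and leaving out animals; leaving out the 3 animals apart on the second component was added after the data were seen.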

Additional observations from a re-analysis of the deposited data

How the results depend on the processing

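Zbtb16 was chosen on its 12-month values, so its calls in differences that involve 12 months are listed as counts, and nothing is read from their gain or loss. For middle-aged minus young, 1 member probe passed (Zbtb16 A_44_P366142) and 0 passed without the filter on dim probes, with only the groups compared, or with the replicate block. Leaving out 1 animal gave 0 to 1 member probes, with Zbtb16 differences of 1.81 to 2.21. The count was 0 without young replicate 1 or 3, any middle-aged replicate, or aged replicate 2. For aged minus middle-aged, 0 member probes passed, and 1 (Zbtb16) with normexp correction or with 12 arrays and animal as a random block. For aged minus young, 0 passed, and 1 with the random block, Fkbp5 A_44_P532249 (0.66, adjusted p = 0.0318), which was also the 1 call among members other than Zbtb16. For 12 months against both other ages, 0 passed, and 1 (Zbtb16) with normexp, slide as a block or the random block; leaving out 1 animal gave 0 to 1, the 1 without young replicate 2. No called difference of a member changed sign. The replicate block changed no other member call.

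Of the 10 other lists, 7 genes passed for aged minus young, 4 with normexp, 0 without the 3 animals apart, and 4 to 7 with 1 animal left out (4 without young replicate 3). For aged minus middle-aged 0 passed, and 1 (Dbp) with the random block. The glucocorticoid-induced list's 12-month median ranged from −0.18 to −0.11 over 23 alternatives.

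Over all probes, 52 passed for middle-aged minus young; this was 20 with normexp, 32 with the series matrix, 5 unfiltered, 31 with the slide block, 81 with the random block, 31 with the second array of each pair, 3 with only the groups compared, 1 with the replicate block, 2 to 18 with 1 animal left out, and 3 without the 3 animals. For aged minus young 552 passed, and 320 with normexp, 318 unfiltered, 320 with the slide block, 280 to 544 with 1 animal left out, and 58 without the 3 animals. For aged minus middle-aged 1 passed, against 0 to 4 under most alternatives and 28 with the random block; for 12 months against both other ages 0 passed, against 0 to 6. Of the aged minus young calls 75% were higher, and 63.9% with the series matrix values. The causes were not tested. With normexp correction and its offset of 50, the 12-month excess of Zbtb16 was 1.29 and 0.29, against 1.84 and 0.84 without them. All member probes were well above background. The offset of 50 lies within the processed signals of A_44_P189428, 18.9 to 61.0, and just below those of A_44_P366142, 55.5 to 383. The parts of the correction and of the offset in this change were not tested apart.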
